A study of Mus musculus with 12 samples.

Results

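Perilipins and lipid droplet lipases were followed as 10 genes, taken from the deposited gene table by symbol: Plin2, Plin3, Plin4, Plin5, Lipe, Pnpla2, Abhd5, Mgll, G0s2 and Hilpda. All 10 were found among the 54532 genes of the table, and 9 had enough counts to enter the tests on 16038 genes. The exception was Plin5. The cells were C2C12 myoblasts, an established line of mouse skeletal muscle precursors, and the exposure was perfluorooctanesulfonate (PFOS, a persistent fluorinated surfactant). Confluent dishes were given PFOS for 24 h, with 4 libraries at 0 µM, 4 at 2 µM and 4 at 6 µM, and all libraries came from this 1 cell line, with no transgene or other genetic change named in the labels. Messenger RNA was sequenced and counted per gene. The comparisons ask how the RNA of droplet coat proteins, lipases and lipase regulators differed at 6 or 2 µM PFOS from 0 µM, and between the exposed doses.

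Cells store triglyceride in lipid droplets, whose surface is covered by perilipins. Lipolysis is stepwise: adipose triglyceride lipase (Pnpla2) removes the first fatty acid, hormone-sensitive lipase (Lipe) acts on diglyceride, and monoglyceride lipase (Mgll) releases glycerol. Abhd5 is the co-activator of Pnpla2, while G0s2 and Hilpda are small inhibitory proteins that bind it. In skeletal muscle the droplets feed fatty acids to the mitochondria, and several of these genes are known targets of the peroxisome proliferator-activated receptors (PPARs) or, in the case of Hilpda, of hypoxia-inducible factors (HIF).

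The 4 genes whose RNA rose at 6 µM PFOS against 0 µM were Plin2, Plin4, Lipe and Hilpda. The 250 bases before a start site of each are shown because regulators such as the PPARs act by binding DNA near the genes they control. They are from RefSeq on GRCm38.p6, read 5′ to 3′ on the strand of the gene. The windows are chr4:86670060-86670309 (minus strand) for Plin2, chr17:56109783-56110032 (minus) for Plin4, chr7:25390113-25390362 (minus) for Lipe and chr6:29272238-29272487 (plus) for Hilpda. Capitals mark the single match to the letters AGGTCA, which reads TGACCT here because it lies on the opposite strand.
Plin2: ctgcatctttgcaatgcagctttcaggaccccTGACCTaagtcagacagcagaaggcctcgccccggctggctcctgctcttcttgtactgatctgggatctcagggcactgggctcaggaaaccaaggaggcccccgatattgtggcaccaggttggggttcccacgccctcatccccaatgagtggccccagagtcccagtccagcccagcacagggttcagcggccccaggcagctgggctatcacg
Plin4: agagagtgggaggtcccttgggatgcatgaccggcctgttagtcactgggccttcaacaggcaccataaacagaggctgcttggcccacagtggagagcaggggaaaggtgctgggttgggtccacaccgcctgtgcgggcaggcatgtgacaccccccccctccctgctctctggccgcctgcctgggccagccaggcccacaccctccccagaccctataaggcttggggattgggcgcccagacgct
Lipe: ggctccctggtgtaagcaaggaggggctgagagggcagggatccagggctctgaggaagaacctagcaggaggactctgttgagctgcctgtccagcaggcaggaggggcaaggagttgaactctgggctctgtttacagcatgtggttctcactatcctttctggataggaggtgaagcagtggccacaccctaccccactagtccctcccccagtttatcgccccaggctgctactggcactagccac
Hilpda: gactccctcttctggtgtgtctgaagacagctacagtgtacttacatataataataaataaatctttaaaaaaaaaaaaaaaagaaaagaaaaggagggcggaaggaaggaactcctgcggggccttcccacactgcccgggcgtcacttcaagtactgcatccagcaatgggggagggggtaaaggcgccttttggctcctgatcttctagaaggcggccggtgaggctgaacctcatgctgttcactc
The match in Plin2 begins 218 bases before the start site. Motifs were searched on both strands in the 14 windows of the 10 genes and in all 32851 windows of the RefSeq table. AGGTCANAGGTCA, the direct repeat that PPAR and its RXR partner bind, was in none of the 14 windows and in 0.0335% of all windows. Its repeat unit AGGTCA was found in Plin2, Abhd5 and Plin5, and in 14% of all windows. The E-box CACGTG was in windows of Mgll and of a second Lipe start, and in 6.02% of all windows. ACGTG, the HIF core that is also part of CACGTG, was in those windows, in that of a second Mgll start and, 43 bases before it, in that of a second Hilpda start, and in 16.6% of all windows. A match is a run of letters only, and sites outside these windows were not searched. Only exact matches were counted. The full repeat is so rare among all windows that its lack in 14 tells little about PPAR binding.

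Total gene counts were between 30206155 and 50351082 per library, and the 10 genes together took 0.0346% to 0.0385% of them at 0 µM, 0.0392% to 0.0408% at 2 µM and 0.0460% to 0.0483% at 6 µM. The labels do not tell whether libraries of 1 dose were separate cultures. The p-values set the difference between doses against the spread among these libraries only, and that spread may be technical. Most muscle markers were present in all libraries, among them Des with 7447 to 12440 counts and Myod1 with 887 to 1468. Pax7, at 0 to 15 counts, and Ckm, at 0 to 12 counts, were each at 0 in 1 library. The summed level of the 12 muscle markers was 314 to 375 CPM (counts relative to the scaled library total) at 0 µM, 283 to 322 CPM at 2 µM and 277 to 304 CPM at 6 µM. Of the 10 that could be tested, 5 fell at 6 µM against 0 µM, beside 3.66% of all tested genes. The 12 adipocyte markers summed to 26.4 to 30.1 CPM at 0 µM, 29.6 to 35.1 CPM at 2 µM and 32.9 to 36.8 CPM at 6 µM. Of the 4 that could be tested Pparg and Fabp4 rose at 6 µM against 0 µM, beside 4.58% of all tested genes. Slc2a4 and Cebpa had log2 fold changes of -0.77 and -0.15 and did not pass. The Fabp4 call held in 12 of 21 alternatives and ended without 0 µM replicate 2, 3 or 4 and without 6 µM replicate 1, 2 or 3. Of the 12 adipocyte markers, Adipoq, Retn and Pck1 were at 0 in all 12 libraries. Plin1, Cidea, Cidec, Cfd and Lep had at most 12 counts in a library, and each was at 0 in several. Pparg, Fabp4, Cebpa and Slc2a4 were above 0 in every library, Pparg with 445 to 1050 counts. In bulk RNA, fewer cells of a type and less RNA per cell cannot be told apart, and the part of these marker shifts in the results on the 10 genes was not tested.

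Some of the droplet genes rose with PFOS and others did not pass the test. At 6 µM against 0 µM, 4 of the 9 tested genes rose (Plin2, Plin4, Lipe and Hilpda) and 0 fell, at an adjusted p under 0.05 by edgeR's quasi-likelihood test. Over all tested genes, 4.58% rose and 3.66% fell. In the same 4 genes every 6 µM library lay above every 0 µM library, which held upward for 6.39% and downward for 6.15% of all genes. Plin2 and Hilpda rose and 0 fell at 2 µM against 0 µM, beside 1.61% and 0.742% of all genes. Only Plin2 was separated without overlap there, a pattern that 4.77% of all genes had upward and 3.6% downward. Between the exposed doses, at 6 µM against 2 µM, Plin2 and Lipe rose and 0 fell, beside 0.561% and 0.549% of all genes. Plin2, Lipe and Pnpla2 were separated upward and G0s2 downward between these doses, against 4.45% and 4.15% of all genes. The counts of 0 were also 0 at an unadjusted p under 0.05 and by DESeq2 and limma-voom for both doses against 0 µM, while at 6 against 2 µM each of these gave 1, G0s2. The median log2 fold change of the 9 genes was 0.20 for 6 against 0 µM, 0.15 for 2 against 0 µM and 0.15 for 6 against 2 µM, beside -0.016, -0.011 and -0.0046 for all genes in the same order. The comparisons with 0 µM share the same 4 untreated libraries, so their results are not independent of each other. The droplet genes were themselves chosen with earlier results of these libraries known. Their counts and medians, set beside those of all genes, are therefore not independent evidence of a direction.

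**Figure D1:**
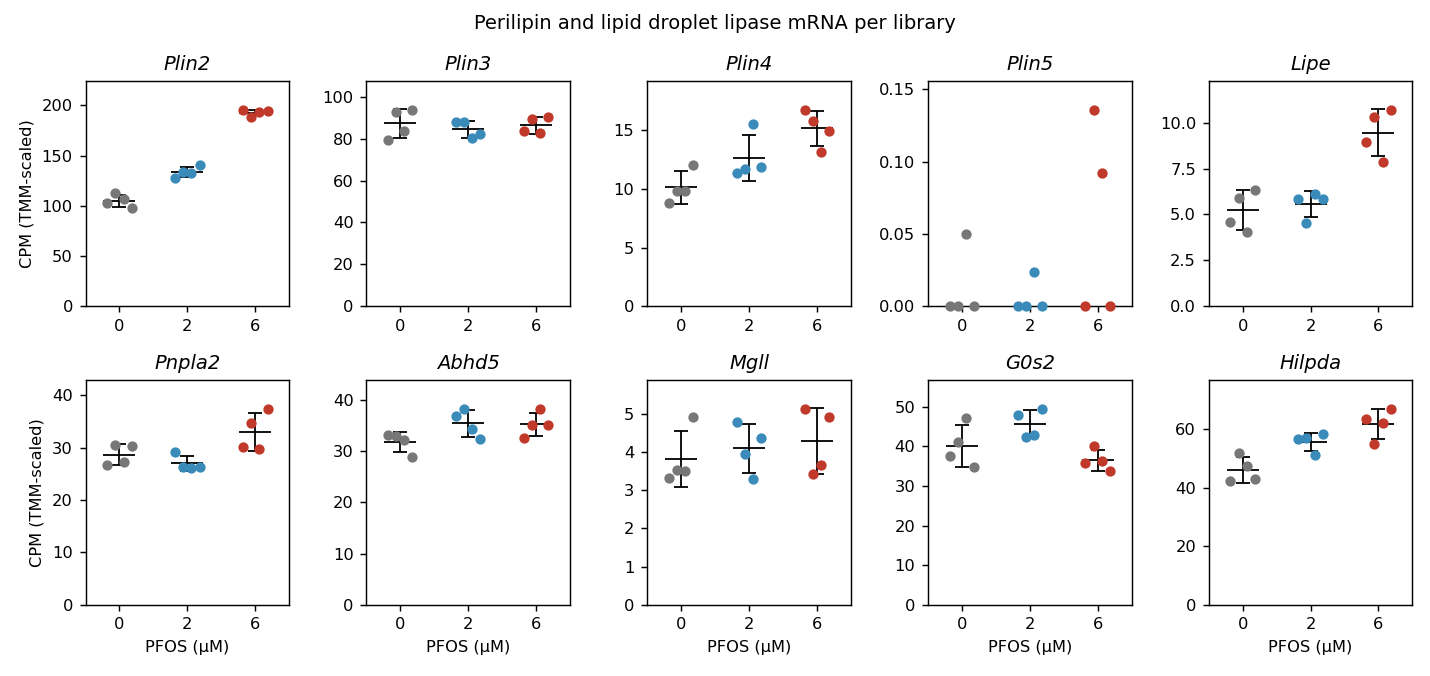
CPM of each of the 10 genes (vertical axes, each with its own scale from 0) in the 4 libraries at 0, 2 and 6 µM PFOS; points are libraries, and bars are the mean ± SD except for Plin5, which had at most 6 counts in a library. Plin2 climbed at each dose, with 188.8 to 195.1 CPM at 6 µM, whereas Lipe was apart from the other doses only at 6 µM.

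Plin2 (adipophilin), the perilipin found on droplets of most non-adipose cells, gave the clearest response of the 10. It lies on chromosome 4, 86648386 to 86670060 (GRCm38, minus strand). Its level was 103.3, 112.5, 106.3 and 98.23 CPM in the 0 µM libraries, 127.6, 133.6, 132.5 and 140.7 CPM at 2 µM, and 195.1, 188.8, 193.6 and 194.4 CPM at 6 µM. No library of 1 dose overlapped those of another. The rise at 6 µM against 0 µM was 1.84-fold (95% confidence interval 1.72 to 1.96), a log2 fold change of 0.88 with SE 0.0463 and an edgeR adjusted p of 2.30e-11. It was 1.27-fold at 2 µM against 0 µM (1.19 to 1.36, edgeR adjusted p = 0.000207), and at 6 µM against 2 µM it was 1.44-fold (1.35 to 1.54, edgeR adjusted p = 3.82e-07). By p, Plin2 stood 4th among the 16038 genes at 6 µM against 0 µM, and 39.5% of that log2 change was present at 2 µM.

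Plin3 (TIP47), the perilipin that moves between cytosol and nascent droplets, gave no detected response. Its levels were 79.42, 92.64, 83.45 and 93.51 CPM at 0 µM, 87.88, 88.01, 80.12 and 82.03 CPM at 2 µM, and 83.5, 89.34, 82.57 and 90.57 CPM at 6 µM, so all doses overlapped. The log2 fold change at 6 µM against 0 µM was -0.013, with a 95% interval of -0.13 to 0.11 and an edgeR adjusted p of 0.929. That interval lies below the whole interval of Plin2 for the same comparison, which began at 0.78.

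Plin4 (S3-12), a coat protein of small nascent droplets that is abundant in adipose tissue and muscle, rose at 6 µM. It had 8.757, 9.855, 9.847 and 12.06 CPM at 0 µM, 11.38, 11.72, 15.55 and 11.85 CPM at 2 µM, and 16.69, 15.8, 13.18 and 14.96 CPM at 6 µM. The 6 µM libraries all lay above the 0 µM libraries, while the 2 µM libraries overlapped both. The rise at 6 µM against 0 µM was 1.50-fold (1.26 to 1.78, edgeR adjusted p = 0.00301). The fold change was 1.25 at 2 µM against 0 µM (1.05 to 1.48, edgeR adjusted p = 0.196) and 1.20 at 6 µM against 2 µM (edgeR adjusted p = 0.348), and neither passed the test. Plin4 shares 17 exon bases, 0.294% of its exons, with Hdgfl2 on the opposite strand, whose log2 fold change at 6 µM against 0 µM was -0.036.

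Plin5, the perilipin of oxidative muscle that tethers droplets to mitochondria, was near the limit of detection. It had 0, 0, 2 and 0 counts at 0 µM, 0, 0, 1 and 0 counts at 2 µM, and 0, 6, 4 and 0 counts at 6 µM. Counts were 0 in 8 of the 12 libraries, and the filter on low counts left Plin5 out of the tests. With no filter, the edgeR adjusted p was 0.683 for 6 against 0 µM, 0.929 for 2 against 0 µM and 0.589 for 6 against 2 µM. Plin1, the perilipin of adipocytes, was likewise almost absent, at 0.0714 CPM at 0 µM, 0.0554 CPM at 2 µM and 0.0254 CPM at 6 µM on average.

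The make-up of the perilipin RNA differed between doses. Counted per base of gene length, Plin2 made up 54.7 ± 2.50% of the summed Plin2 to Plin5 RNA at 0 µM, 60.8 ± 1.61% at 2 µM and 68.3 ± 1.17% at 6 µM (SD, n = 4). The share of Plin3 was 42.1 ± 2.13% at 0 µM, 35.7 ± 1.82% at 2 µM and 28.4 ± 1.09% at 6 µM. Plin4 held 3.20% at 0 µM, 3.50% at 2 µM and 3.26% at 6 µM. The ratio of Plin2 to Plin3 within a library was 1.13 to 1.40 at 0 µM, 1.57 to 1.85 at 2 µM and 2.28 to 2.53 at 6 µM, with no overlap between doses. These shares and ratios describe the libraries and were not tested.

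**Figure D2:**
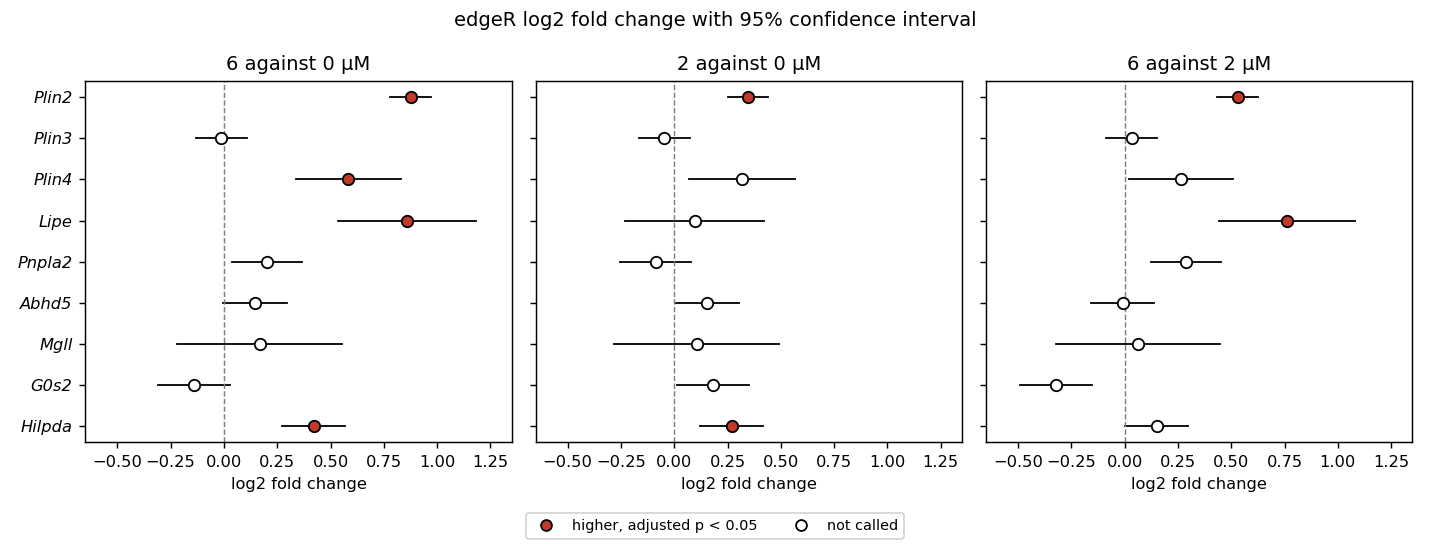
Log2 fold change (horizontal axes) with its 95% confidence interval for the 9 tested genes in the 3 comparisons; filled points passed an adjusted p of 0.05 and open points did not. Plin2 is filled in every panel, Lipe at 6 µM against 0 and against 2 µM, Hilpda at both doses against 0 µM, and Plin4 at 6 µM against 0 µM.

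Among the lipases, the RNA of hormone-sensitive lipase (Lipe, chromosome 7, 25379527 to 25398710, minus strand) rose at the higher dose. It had 4.593, 5.891, 4.024 and 6.353 CPM at 0 µM, 5.84, 4.528, 6.11 and 5.847 CPM at 2 µM, and 8.97, 10.29, 7.883 and 10.67 CPM at 6 µM. All 6 µM libraries were above all others, and the 0 and 2 µM libraries overlapped. Lipe rose 1.81-fold at 6 µM against 0 µM (1.45 to 2.27, edgeR adjusted p = 0.00104) and 1.70-fold against 2 µM (1.36 to 2.11, edgeR adjusted p = 0.0120). The fold change was 1.07 at 2 µM against 0 µM (0.853 to 1.34, edgeR adjusted p = 0.843), and 11.3% of the log2 change seen at 6 µM was present there. The call against 2 µM ended without 2 µM replicate 2 (edgeR adjusted p = 0.0601) or without 6 µM replicate 4 (0.0636). Lipe shares 918 exon bases (15.6%) with the antisense gene 4732471J01Rik, which had 5 to 34 counts in a library and a log2 fold change of -0.56 (edgeR adjusted p = 0.659). Whether counting used strand is not given in the sources used here.

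Pnpla2, the lipase of the first step, was more abundant than Lipe per base of gene length, and none of its differences passed the test. It had 26.7, 30.52, 27.22 and 30.3 CPM at 0 µM, 29.25, 26.34, 26.09 and 26.33 CPM at 2 µM, and 30.21, 34.72, 29.75 and 37.4 CPM at 6 µM. Every 6 µM library was above every 2 µM library, but the 6 and 0 µM libraries overlapped. Its fold change was 1.15 at 6 µM against 0 µM (1.03 to 1.29, edgeR adjusted p = 0.129), 0.941 at 2 µM against 0 µM (0.839 to 1.06, edgeR adjusted p = 0.689) and 1.22 at 6 µM against 2 µM (1.09 to 1.37, edgeR adjusted p = 0.0816). The last passed in 2 of 21 alternatives, DESeq2 (adjusted p = 0.0196) and edgeR with no filter on low counts (adjusted p = 0.0222).

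Mgll, the lipase of the final step, was the scarcest of the tested genes per base. It had 3.307, 3.53, 3.499 and 4.92 CPM at 0 µM, 4.778, 3.947, 3.283 and 4.363 CPM at 2 µM, and 5.119, 3.431, 3.652 and 4.903 CPM at 6 µM. All doses overlapped. The fold change at 6 µM against 0 µM was 1.12, with an interval of 0.858 to 1.47 that leaves room for a change in either direction (edgeR adjusted p = 0.664).

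The lipases were present in different proportions at 6 µM. Per base of gene length, the ratio of Lipe to Pnpla2 was 0.0759 to 0.108 at 0 µM, 0.0882 to 0.120 at 2 µM and 0.136 to 0.152 at 6 µM, so the 6 µM libraries stood apart. Mgll to Lipe was 0.859 ± 0.131 at 0 µM, 0.862 ± 0.170 at 2 µM and 0.530 ± 0.113 at 6 µM (SD, n = 4). Its 6 µM libraries, at 0.386 to 0.662, lay below all 0 µM libraries, at 0.695 to 1.01, but overlapped the 2 µM libraries.

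Abhd5, the co-activator of Pnpla2 (also called CGI-58), had 33.22, 32.92, 32.19 and 28.9 CPM at 0 µM, 36.79, 38.22, 34.36 and 32.36 CPM at 2 µM, and 32.51, 35.03, 38.16 and 35.14 CPM at 6 µM. All doses overlapped. The fold change was 1.11 at 6 µM against 0 µM (0.998 to 1.23, edgeR adjusted p = 0.241), and 0.994 at 6 µM against 2 µM (edgeR adjusted p = 0.979).

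Of the inhibitors of Pnpla2, Hilpda rose with PFOS and G0s2 did not pass the test. Hilpda, known for its induction by hypoxia and by fatty acids, lies on chromosome 6, 29272488 to 29275446 (plus strand). Its levels were 42.22, 51.85, 47.58 and 43.04 CPM at 0 µM, 56.56, 56.88, 51.37 and 58.29 CPM at 2 µM, and 63.67, 54.92, 62.14 and 66.92 CPM at 6 µM. All 6 µM libraries were above all 0 µM libraries, while the 2 µM libraries overlapped both. Hilpda rose 1.34-fold at 6 µM against 0 µM (1.21 to 1.48, edgeR adjusted p = 0.000565) and 1.21-fold at 2 µM against 0 µM (1.09 to 1.34, edgeR adjusted p = 0.0459). The fold change at 6 µM against 2 µM was 1.11 (1.00 to 1.23, edgeR adjusted p = 0.385), and 64.3% of the log2 change at 6 µM was present at 2 µM.

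The call of Hilpda at 2 µM was close to the threshold. It ended in the edgeR fits without 0 µM replicate 1, 3 or 4, without 2 µM replicate 1, 2 or 4, and without 6 µM replicate 1 or 3, with adjusted p-values up to 0.173. The call at 6 µM against 0 µM held in all 21 alternatives.

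G0s2, the other inhibitor, had 37.66, 41.02, 47.01 and 34.8 CPM at 0 µM, 47.88, 42.37, 42.79 and 49.39 CPM at 2 µM, and 35.72, 40.09, 36.27 and 33.79 CPM at 6 µM. The 6 µM libraries all lay below the 2 µM libraries, and the 0 µM libraries overlapped both. Its fold change was 0.908 at 6 µM against 0 µM (0.806 to 1.02, edgeR adjusted p = 0.349), 1.13 at 2 µM against 0 µM (1.01 to 1.28, edgeR adjusted p = 0.300) and 0.800 at 6 µM against 2 µM (0.711 to 0.900, edgeR adjusted p = 0.0558). The last missed the threshold narrowly and passed it in 9 of 21 alternatives, among them DESeq2 (adjusted p = 0.0107), so its call depended on the processing. Among the fits without 1 library, G0s2 passed without 0 µM replicate 1, 3 or 4 and without 6 µM replicate 2. G0s2 overlaps Lamb3 on the opposite strand but shares 0 exon bases with it.

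The ratio of lipase to inhibitor RNA depended on the inhibitor. Pnpla2 to G0s2 per base was 0.167 to 0.251 at 0 µM, 0.154 to 0.179 at 2 µM and 0.237 to 0.319 at 6 µM. The 6 and 2 µM libraries did not overlap, and the 0 µM libraries overlapped both. Pnpla2 to Hilpda was 0.209 to 0.257 at 0 µM, 0.165 to 0.189 at 2 µM and 0.173 to 0.231 at 6 µM, where the 6 µM libraries overlapped those of both other doses. Hilpda to G0s2 was 0.799 to 0.998 at 0 µM, 0.932 to 1.06 at 2 µM and 1.08 to 1.56 at 6 µM, so the 6 µM libraries were above all others.

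**Figure D3:**
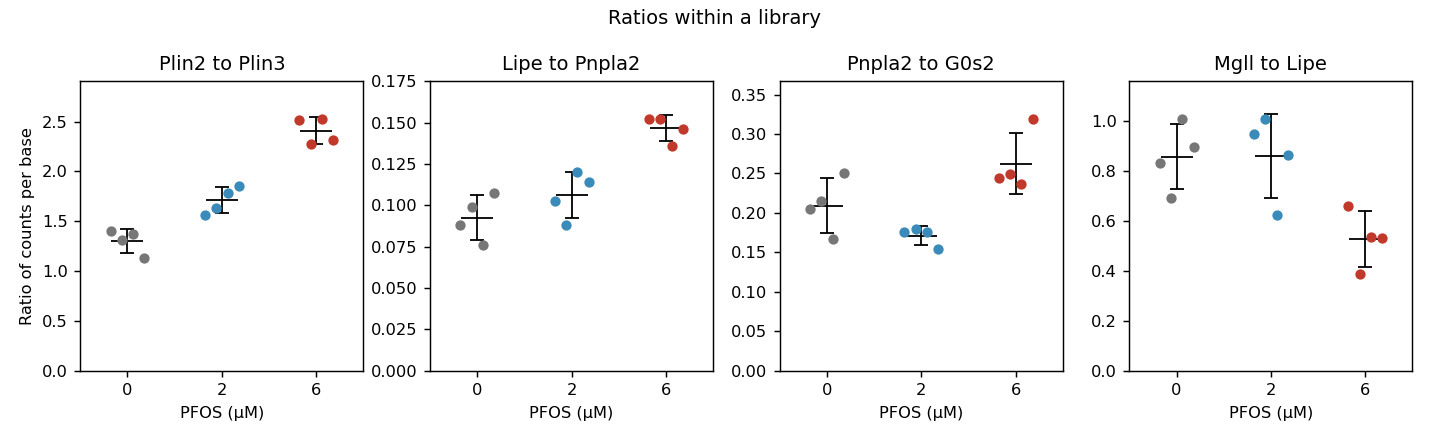
Ratio of counts per base of 2 genes within a library (vertical axes from 0), by PFOS dose; points are libraries and bars the mean ± SD of 4. Plin2 to Plin3 was apart at each dose, at 2.28 to 2.53 at 6 µM against 1.13 to 1.40 at 0 µM, and Lipe to Pnpla2 was apart at 6 µM only.

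Levels of different genes were compared as CPM per kb of gene length. At 0 µM the inhibitors led, with G0s2 at 46.1 ± 6.03 and Hilpda at 41.9 ± 4.04 CPM per kb, whose libraries overlapped. Plin2 followed at 29.9 ± 1.70, Plin3 at 23.0 ± 1.83, Pnpla2 at 9.50, Abhd5 at 5.34 and Plin4 at 1.75 CPM per kb, each apart from its neighbours. Lipe at 0.886 and Mgll at 0.751 CPM per kb overlapped each other. At 6 µM the order of the leading genes was another: Hilpda had 56.1 ± 4.60, Plin2 54.9 ± 0.816 and G0s2 41.9 ± 3.03 CPM per kb. Hilpda and Plin2 overlapped there, and G0s2 lay below both. Lipe, at 1.61 ± 0.217 CPM per kb, no longer overlapped Mgll at 0.842 (SD, n = 4 throughout).

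**Figure D4:**
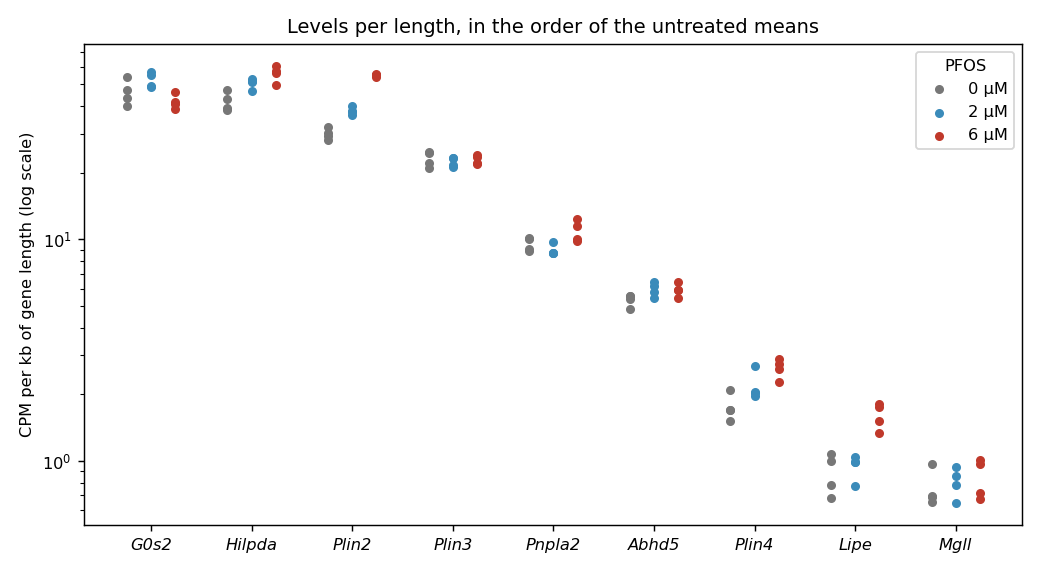
Level of each gene in CPM per kb of gene length (vertical axis, log scale) in each library, coloured by PFOS dose and ordered by the mean at 0 µM; Plin5, at 0 in 8 of 12 libraries, is left out. At 6 µM Plin2, at 54.9 CPM per kb on average, reached the level of Hilpda, at 56.1.

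Of the other droplet proteins and lipid hydrolases, 1 gene each was called at 6 µM against 0 µM. Among all genes 4.58% rose and 3.66% fell, and with 12 and 14 tested genes the lists are too short to be set against those shares. Of 18 further droplet proteins, 12 were tested and 1 rose at 6 µM against 0 µM, Acsl3, an acyl-CoA synthetase of nascent droplets (1.12-fold, edgeR adjusted p = 0.0244). That call ended without 0 µM replicate 2 or 3 and without 6 µM replicate 3 or 4. Of 18 other neutral lipid hydrolases, 14 were tested and 1 fell, Ces1d, a carboxylesterase, at 1.35 ± 0.462 CPM at 6 µM against 3.36 ± 0.438 CPM at 0 µM (2.49-fold lower, edgeR adjusted p = 0.00210). Its call ended without the 3 libraries farthest from their dose means (edgeR adjusted p = 0.0731). In the other comparisons edgeR called 0 genes of these 2 lists. At an unadjusted p under 0.05 they held 2 at 2 against 0 µM and 5 at 6 against 2 µM. DESeq2 called 1 in each of these comparisons and limma-voom 0. Their median log2 fold changes at 6 µM against 0 µM were 0.050 for the droplet proteins and -0.030 for the hydrolases, beside -0.016 for all genes.

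Genes that build triglyceride, listed together with Soat1, which makes cholesteryl ester instead, rose in part. Of these 16, 15 were tested. At 6 µM against 0 µM 5 of them, Soat1 included, rose and 0 fell, beside 4.58% and 3.66% of all genes. Their median log2 fold change was 0.073, beside -0.016 for all genes. The list was drawn up with earlier results of these libraries known, so its counts are not independent evidence of a direction. The 4 with the smallest adjusted p were Agpat3, an acyltransferase (1.40-fold, edgeR adjusted p = 5.08e-07), Lpin1, a phosphatidate phosphatase (1.32-fold, 0.00103), Gpat3, which acylates glycerol phosphate (1.53-fold, 0.00343), and Soat1, which esterifies cholesterol (1.17-fold, 0.00465). Without the 3 libraries farthest from their dose means, 3 rose, and the calls of Gpat3 and Dgat2 ended (edgeR adjusted p = 0.0576 and 0.0857). Of the listed genes, 4 rose at 2 µM against 0 µM, Soat1 again included, beside 1.61% of all genes. Dgat2, which makes triglyceride from diglyceride, led the 4 (1.42-fold, edgeR adjusted p = 0.00992). That count was 1 without 0 µM replicate 2 or without 2 µM replicate 2 or 4, and 2 without 0 µM replicate 4 or 2 µM replicate 1. Agpat3 (1.22-fold, edgeR adjusted p = 0.00154) and Lpin1 (1.31-fold, 0.00612) rose at 6 µM against 2 µM, beside 0.561% of all genes.

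Of 22 PPAR targets other than the 10 genes, 17 were tested. At 6 µM against 0 µM 9 of them rose and 0 fell, beside 4.58% and 3.66% of all genes. Their median log2 fold change was 0.41, beside -0.016 for all genes. The calls of Fabp4, also an adipocyte marker above, and Slc25a20 ended without the 3 libraries farthest from their dose means (edgeR adjusted p = 0.377 and 0.166). Angptl4, a secreted inhibitor of lipoprotein lipase, averaged 202 ± 9.94 CPM at 6 µM against 9.42 ± 1.02 CPM at 0 µM (21.5-fold, edgeR adjusted p = 8.54e-22). Pdk4, which inhibits pyruvate dehydrogenase, rose 2.70-fold (edgeR adjusted p = 3.84e-13), Cpt1a, which admits long-chain fatty acids to mitochondria, 1.97-fold (1.12e-11), and Ucp2, a mitochondrial carrier, 1.88-fold (1.04e-08). With 2 µM against 0 µM, 4 rose (2 without 2 µM replicate 4), beside 1.61% of all genes. The 4 included Angptl4 (6.56-fold, edgeR adjusted p = 1.73e-17) and Cpt1a (1.44-fold, 1.96e-06). Against 2 µM, 7 rose at 6 µM, beside 0.561% of all genes. Angptl4 (3.27-fold, edgeR adjusted p = 1.52e-14) and Pdk4 (2.36-fold, 5.84e-12) led the 7. Of the receptors, Pparg rose 1.33-fold at 6 µM against 0 µM (edgeR adjusted p = 0.00336), while Ppard (1.13-fold, 0.113) and Ppara (1.39-fold, 0.740) did not pass the test. The list was drawn up with earlier results of these libraries known, so its count is not independent evidence of a direction.

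Of the HIF targets other than Hilpda, all 15 were tested. At 6 µM against 0 µM 5 of them rose and 0 fell, beside 4.58% and 3.66% of all genes. Their median log2 fold change was 0.13, beside -0.016 for all genes. Like the PPAR list, the HIF list was drawn up with earlier results of these libraries known, so its counts are not independent evidence of a direction. Ero1l, which oxidises protein disulphides in the endoplasmic reticulum, rose 1.44-fold (edgeR adjusted p = 2.95e-09), Slc2a1, a glucose transporter, 1.19-fold (0.00211), Ndrg1, a stress-response gene, 1.16-fold (0.00279), and Adm, the adrenomedullin precursor, 1.26-fold (0.00790). At 2 µM against 0 µM 4 rose, beside 1.61% of all genes. The 4 included Ero1l (1.37-fold, edgeR adjusted p = 2.46e-07) and Vegfa, an angiogenic growth factor (1.10-fold, 0.0360). That count was 8 with DESeq2 and 1 with upper-quartile scaling, and 1 or 2 without 0 µM replicate 1 or 3, without 2 µM replicate 1, 2 or 4, and without 6 µM replicate 1, 3 or 4. At 6 µM against 0 µM Vegfa had a fold change of 1.06 (edgeR adjusted p = 0.163). At 6 µM against 2 µM edgeR called 0 genes of the list, where 0.561% of all genes rose and 0.549% fell. The list held 1 gene there at an unadjusted p under 0.05 and 1 called by DESeq2.

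The genes whose log2 CPM ran most nearly parallel to each of the 4 responders were found among 10862 protein-coding genes, over 12 libraries that share their doses. For Plin2 they were Cyp26b1 (Pearson r = 0.977), a retinoic acid hydroxylase, Ech1 (0.972), an isomerase of fatty acid oxidation, and Acadl (0.969), the long-chain acyl-CoA dehydrogenase. For Hilpda they were Tcf20 (0.930), Usp39 (0.927) and Pgk1 (0.927), a glycolytic kinase that is also on the HIF list. Lipe was most like Hist1h3c (0.945), Lrp8 (0.932) and Ttll12 (0.930), and Plin4 most like Eftud2 (0.912), Phactr4 (0.910) and Poldip3 (0.902). Among the 10 genes themselves, r over the 12 libraries was 0.872 for Plin2 and Hilpda and 0.834 for Lipe and Pnpla2. It was -0.573 for Pnpla2 and G0s2, and -0.0459 for Plin2 and Plin3. These values carry no test and rest in part on the dose that the libraries share.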

How the data were processed

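RNA of C2C12 cells was sequenced at 0, 2 and 6 µM PFOS, 4 libraries each, grouped by sample title. The authors deposited 1 table of read counts per gene, whole numbers and not normalized, with a gene length column in bases. HISAT2 was the aligner and GRCm39 the build, per the submitters' processing notes. All 10 genes have the coordinates of GENCODE M21 in the table, which is GRCm38, so that build is named. Not given in the sources used here are the counting program and its strand setting.

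Counts were tested with edgeR 4.0.16 (R 4.3.3): TMM scaling, filterByExpr by dose (16038 genes kept, 38494 left out), 1 mean per dose over 12 libraries and the quasi-likelihood test, with Benjamini-Hochberg adjustment over all tested genes and a threshold of 0.05. Intervals are 95%. CPM used TMM-scaled library sizes, with a prior count of 2 on the log2 scale. Alternatives used limma 3.58.1, DESeq2 1.42.0, other scalings and filters, a replicate block and libraries left out. The procedure was tested on simulated data, with 50 genes per size of change at 6 µM against 0 µM. It called 56% of 1.25-fold, 70% of 1.5-fold and 96% of 2-fold rises, and 54% of falls to 0.8-fold. It also made 12 calls among unchanged genes. Changes near 1.25-fold were thus often missed in the simulated data. Fewer genes were changed there than were called in the real data at 6 µM against 0 µM, so these rates need not hold here.

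The 10 genes and all lists were chosen with earlier results of these data known, so none of their counts is independent evidence of a direction. Named were all 10 genes, the 3 genes most correlated with each that rose at 6 µM, up to 4 called genes per list (2 in the other comparisons), Angptl4, Vegfa, Plin1 and the PPAR receptors. A list of lipolytic signalling genes is not reported here. No 2 libraries agreed within sampling noise. Depth limits Plin5, which had at most 6 counts in a library.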

Additional observations from a re-analysis of the deposited data

Results flagged for a closer look

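In 27 groups of 4 libraries (9 genes at 3 doses), the gap between the most extreme library and its nearest neighbour was divided by the range of the group. It reached the critical value of 0.829 in 4 groups, and chance flags about 1 in 20 groups. Plin4 in 2 µM replicate 3 was 15.55 CPM, above 11.38 to 11.85 CPM in the other 2 µM libraries (gap over range 0.887). Lipe in 2 µM replicate 2 was 4.528 CPM, below 5.84 to 6.11 CPM in the others (0.829). Pnpla2 in 2 µM replicate 1 was 29.25 CPM, above 26.09 to 26.34 CPM (0.92). Mgll in 0 µM replicate 4 was 4.92 CPM, above 3.307 to 3.53 CPM (0.861).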

How the results depend on the processing

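The fold changes and counts of called genes were recomputed under 21 alternatives. The shares, ratios, level order, correlations and motif matches were not. Of the single-gene results, 531 of 567 kept direction and call. Plin2 was called in all 21 in every comparison, and Plin4, Lipe and Hilpda in all 21 at 6 µM against 0 µM, so 4 genes rose there in each. At 2 µM against 0 µM, 1 of the genes rose rather than 2 with upper-quartile scaling, limma-voom and without the 3 libraries farthest from their dose means (range without 1 library 1 to 2). At 6 µM against 2 µM, 1 fell rather than 0 with DESeq2, limma-voom, no filter, a mean count of at least 50 and only the compared doses (without 1 library 0 to 1, and 1 to 2 rose). That gene was G0s2. With DESeq2 and with no filter 3 rose there, the added gene being Pnpla2. Only leave-one-out fits turned a direction, none called: log2 fold changes ranged from -0.055 to 0.022 for Plin3 at 6 µM against 0 µM, -0.0098 to 0.20 for Lipe at 2 µM against 0 µM, and, at 6 µM against 2 µM, -0.051 to 0.030 for Abhd5 and -0.035 to 0.16 for Mgll. Over all genes at 6 µM against 0 µM, 408 rose and 302 fell without the 3 libraries (without 1 library 513 to 789 and 398 to 592). At 2 µM against 0 µM, 524 rose and 227 fell with DESeq2 and 438 and 193 with no filter (without 1 library 72 to 322 and 34 to 168, lowest without 2 µM replicate 4). At 6 µM against 2 µM, 229 rose and 216 fell with DESeq2, 177 and 224 with no filter, and 174 and 133 with only the compared doses, while 55 fell without the 3 libraries (without 1 library 45 to 138 and 33 to 121). The cause of these shifts was not tested. Same-numbered libraries did not deviate together over all tested genes (r -0.028 to 0.037). These r weigh every tested gene alike and were not set against those of differently numbered libraries. They therefore cannot tell whether the numbers pair the libraries. With a replicate block, 1 of the genes rose at 2 µM against 0 µM, 54 of all genes fell at 6 µM against 2 µM, and Hilpda at 2 µM had an edgeR adjusted p of 0.0836.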
